A study of Mus musculus with 2 samples.

Results

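The genes described here encode amino acid transporters of the solute carrier families 1, 3, 6, 7, 36, 38 and 43. All genes of the deposited gene list whose symbols start with Slc1a, Slc3a, Slc6a, Slc7a, Slc36a, Slc38a or Slc43a were taken, except Slc7a10, which was used to define a class of nuclei. They were 66 of the 31053 genes counted. The prefixes also took in genes that do not move amino acids across the plasma membrane: 4 members carry the suffix os and are not transporters, Slc6a2, Slc6a3 and Slc6a4 carry monoamines, Slc43a3 carries purine bases, and Slc38a9 and Slc38a7 sit mainly on lysosomes.

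Single-nucleus RNA sequencing was run on brown adipose tissue of C57BL/6 mice. The TN library came from mice kept at thermoneutrality, and the 1cyc library from mice taken 4 days after a transient acute cold exposure. Each library pooled nuclei from 5 mice, sorted on the DNA stain DAPI, so each condition was 1 sample. No test between conditions was possible, and every interval below is a 95% interval that covers counting error only.

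Amino acid transporters work as exchangers, as symporters driven by sodium or proton gradients, or as facilitators, and some need a second glycoprotein chain to reach the cell surface. Brown fat takes up glutamine, glutamate and branched-chain amino acids from blood, and it feeds them to the tricarboxylic acid cycle, to glutathione and to nitrogen disposal. Slc36a2, a proton-coupled carrier of small neutral amino acids, is also known as a surface marker of brown adipocytes.

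The deposited TN file held 2551 barcodes with a median of 800 UMIs, and the 1cyc file held 4321 with a median of 378. UMIs are unique molecular identifiers, each standing for 1 captured transcript. Mitochondrially encoded transcripts made up a median of 4.76% of UMIs in TN against 22.1% in 1cyc. Under the limit of 5%, 1340 and 1084 barcodes were kept as nuclei. Adipocyte nuclei held at least 4 UMIs of Pparg, Acsl1, Pde3b and Ppara together: 1081 in TN and 912 in 1cyc, with 1193078 and 989852 UMIs. White-like nuclei, those of the adipocyte nuclei with at least 3 UMIs of Nnat and Slc7a10, numbered 81 of the 1081 TN nuclei (7.49%, 5.99 to 9.23) and 23 of the 912 1cyc nuclei (2.52%, 1.61 to 3.76). The remaining 1000 and 889 are called brown adipocyte nuclei. Levels are in CPM, the UMIs of a gene per 1e+06 UMIs of the class. The brown adipocyte marker list summed to 4383 CPM in TN and 5106 CPM in 1cyc in brown adipocyte nuclei. It summed to 795 and 590 CPM in white-like nuclei. The white adipocyte list, of 9 genes with 1 at 0, summed to 868 and 903 CPM in brown adipocyte nuclei. In white-like nuclei it summed to 3438 and 2439 CPM, so the markers followed both names. A further 259 TN and 172 1cyc nuclei lay outside the adipocyte gate. The libraries shared 6 barcodes.

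In adipocyte nuclei 14 of the 66 members held at least 50 UMIs over both libraries, the level from which a ratio is given. Another 37 held 1 to 49 UMIs and 15 held none. Just inside the limit were Slc38a2 and Slc38a7 with 52 UMIs each, and just outside it was Slc38a10 with 49. A count of 0 allows up to 2.51 CPM in TN against 3.03 CPM in 1cyc, taking 3 counts as the limit. The members together made up 3214 CPM of the TN and 3046 CPM of the 1cyc adipocyte UMIs, nearly the same summed level. Of the 14, 1 passed 1.5-fold downward in 1cyc and 0 passed it upward. Over the 5649 genes with at least 50 UMIs, 7.49% passed the lower and 11.2% the higher limit. The median log2 ratio of 1cyc over TN was 0.05 for the 14 members and 0.10 for all 5649 genes, and 8 of 14 members lay above 1 against 60.2% of all genes. With TMM scaling, which lowered all log2 ratios by 0.10, the median of the members was −0.05, and Slc1a5 (0.980), Slc38a2 (0.963) and Slc7a6 (0.968) moved to the lower side of 1.

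**Figure D1:**
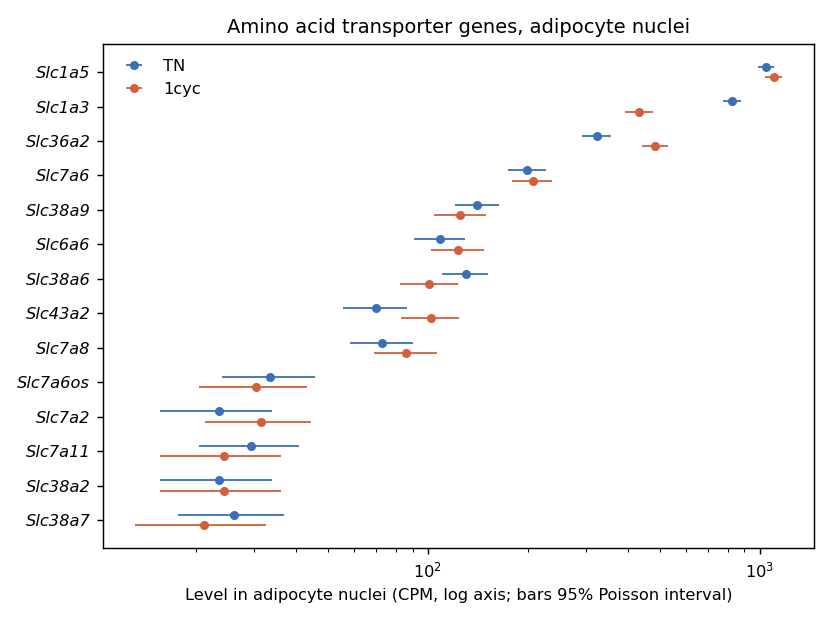
Level of the 14 members with at least 50 UMIs in adipocyte nuclei, in CPM on a log axis, for the TN and 1cyc libraries, with 95% Poisson intervals as bars. Slc1a3 stood at 827 CPM in TN against 432 CPM in 1cyc, while Slc1a5 stood above 1000 CPM in both.

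The glutamate and aspartate carriers were represented by 1 gene. Slc1a3, known as GLAST or EAAT1, takes up glutamate with sodium and is best known from astrocytes. It held 987 UMIs in TN and 428 in 1cyc, or 827 CPM (776 to 881) and 432 CPM (392 to 475). The 1cyc level was 0.523 times the TN level (0.466 to 0.586), the one member past 1.5-fold, and the library intervals did not overlap. Its gene, ENSMUSG00000005360, lies on the minus strand of mouse chromosome 15 from 8634124 to 8710764 in mm10, and the gene model Gm37310 overlaps it on the same strand, so reads of the pair could be split. The other carriers of this group were scarce in adipocyte nuclei. Slc1a1, the neuronal and epithelial glutamate carrier, held 4 UMIs in TN and 9 in 1cyc, and Slc1a7 held 1 and 2. Slc1a6 held 1 UMI in TN, and Slc1a2, the main glial glutamate carrier, held 0.

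Slc1a5, known as ASCT2, exchanges glutamine for other neutral amino acids with sodium. Its gene, ENSMUSG00000001918, lies on the plus strand of chromosome 7 from 16781340 to 16798274, with no overlapping gene model. It held 1250 TN and 1090 1cyc UMIs, or 1048 CPM (990 to 1107) and 1101 CPM (1037 to 1169), a ratio of 1.05 (0.968 to 1.14). The intervals of the libraries overlapped, and this ratio depended on which nuclei were counted. It was 0.826 (0.740 to 0.922) with a mitochondrial limit of 2% and 1.25 in brown adipocyte nuclei, described below. Its close relative Slc1a4, which carries alanine and serine, held 5 and 7 UMIs. Whether introns were counted is not given in the sources used here, and levels per kilobase of annotated gene span hold as a comparison between genes if reads came from the whole span. On that scale Slc1a5 was the highest member at 61.9 CPM per kb in TN and 65.0 in 1cyc. Slc36a2 followed at 12.2 and 18.2 CPM per kb, Slc1a3 at 10.8 and 5.64, and the light chain gene Slc7a6 at 6.68 and 6.94.

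The proton-coupled carriers were represented by Slc36a2, also known as PAT2, which moves glycine, alanine and proline with protons. Its gene, ENSMUSG00000020264, lies on the minus strand of chromosome 11 from 55158470 to 55185077, between Slc36a3 and Slc36a1. It held 386 TN and 479 1cyc UMIs, or 324 CPM (292 to 357) and 484 CPM (442 to 529). The ratio was 1.496 (1.31 to 1.71), just under the 1.5-fold limit, with the 1cyc interval wholly above that of TN. Its neighbour Slc36a1, the widely expressed lysosomal and surface carrier of the family, held 20 and 16 UMIs, a ratio of 0.964 (0.467 to 1.96). The other neighbour, Slc36a3, held 1 UMI, and Slc36a4, a tryptophan and proline carrier, held 8 and 4.

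The facilitators of family 43 carry large neutral amino acids without ion coupling. Slc43a2, known as LAT4, held 83 TN and 101 1cyc UMIs, or 69.6 CPM (55.4 to 86.2) and 102 CPM (83.1 to 124), a ratio of 1.47 (1.09 to 1.99). Its intervals overlapped slightly, while the interval of the ratio lay above 1. Slc43a1, known as LAT3, held 30 TN and 5 1cyc UMIs (ratio 0.201, 0.0609 to 0.523). Slc43a3, the purine base carrier, held 26 and 9 (ratio 0.417, 0.172 to 0.919). Both were under the limit of 50 UMIs and are named because they passed 1.5-fold when the limit was set to 20. At that limit 20 members had a ratio, 3 of them at least 1.5-fold lower (Slc1a3, Slc43a1 and Slc43a3) and 1 higher (the creatine carrier gene Slc6a8, with 9 TN and 17 1cyc UMIs, 2.28, 0.960 to 5.80). Over the 8409 genes with at least 20 UMIs, 11.3% passed the lower and 15.5% the higher limit. Slc43a1 and Slc43a3 reached the minimum of 20 UMIs on their TN counts alone. Their place in the lower count thus rests on the library where they were high.

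The light chains of family 7 pair with the heavy chain 4F2hc, encoded by Slc3a2, to exchange neutral, cationic or acidic amino acids. Slc7a6, known as y+LAT2, held 238 TN and 205 1cyc UMIs, or 199 CPM (175 to 227) and 207 CPM (180 to 237). Slc7a8, known as LAT2, held 87 and 85, or 72.9 CPM (58.4 to 89.9) and 85.9 CPM (68.6 to 106). Slc7a11, the cystine and glutamate exchanger xCT, held 35 and 24, or 29.3 CPM (20.4 to 40.8) and 24.2 CPM (15.5 to 36.1). The ratios were 1.04 (0.857 to 1.26), 1.18 (0.863 to 1.61) and 0.826 (0.470 to 1.43), each with an interval that held 1. The heavy chain gene Slc3a2 itself held 13 TN and 16 1cyc UMIs. Slc7a5, the LAT1 light chain known from growing cells, held 0 UMIs in adipocyte nuclei and 2 UMIs over all deposited barcodes. Slc7a7 held 7 UMIs in adipocyte nuclei. Slc7a6os, a neighbour of Slc7a6 on the opposite strand that is not a transporter, held 40 and 30 UMIs (ratio 0.904, 0.544 to 1.49). It does not overlap Slc7a6 in the annotation.

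The cationic carriers move arginine, lysine and ornithine. Slc7a2, known as CAT2, held 28 TN and 31 1cyc UMIs, or 23.5 CPM (15.6 to 33.9) and 31.3 CPM (21.3 to 44.5), a ratio of 1.33 (0.774 to 2.31). Slc7a1, the general arginine carrier CAT1, held 6 and 8 UMIs. Neither differed beyond its counting interval.

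Family 38 holds sodium-coupled carriers of glutamine and other neutral amino acids, with 11 members here. Slc38a6 held 155 TN and 100 1cyc UMIs, or 130 CPM (110 to 152) and 101 CPM (82.2 to 123), a ratio of 0.778 (0.599 to 1.01). Slc38a9, the lysosomal arginine sensor upstream of mTORC1, held 168 and 124, or 141 CPM (120 to 164) and 125 CPM (104 to 149), a ratio of 0.890 (0.700 to 1.13). Both intervals held 1, but that of Slc38a6 lay below 1 under other settings, such as a mitochondrial limit of 2% (0.558, 0.391 to 0.793). Slc38a2, a stress-responsive glutamine and alanine carrier known as SNAT2, held 28 and 24 UMIs (ratio 1.03, 0.573 to 1.85). Slc38a7, a lysosomal glutamine exporter, held 31 and 21 (0.816, 0.446 to 1.47), and Slc38a10 held 24 and 25. Slc38a1, known as SNAT1, held 4 and 1.

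Among the carriers of taurine, creatine, betaine and GABA, Slc6a6 was the one with enough UMIs. This taurine carrier held 130 TN and 122 1cyc UMIs, or 109 CPM (91.0 to 129) and 123 CPM (102 to 147), a ratio of 1.13 (0.876 to 1.46). Apart from Slc6a6 and Slc6a8, no member of family 6 reached 10 UMIs in adipocyte nuclei. Of those, Slc6a20b and Slc6a13 had the most, with 6 each, and the serotonin carrier gene Slc6a4 held 0.

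**Figure D2:**
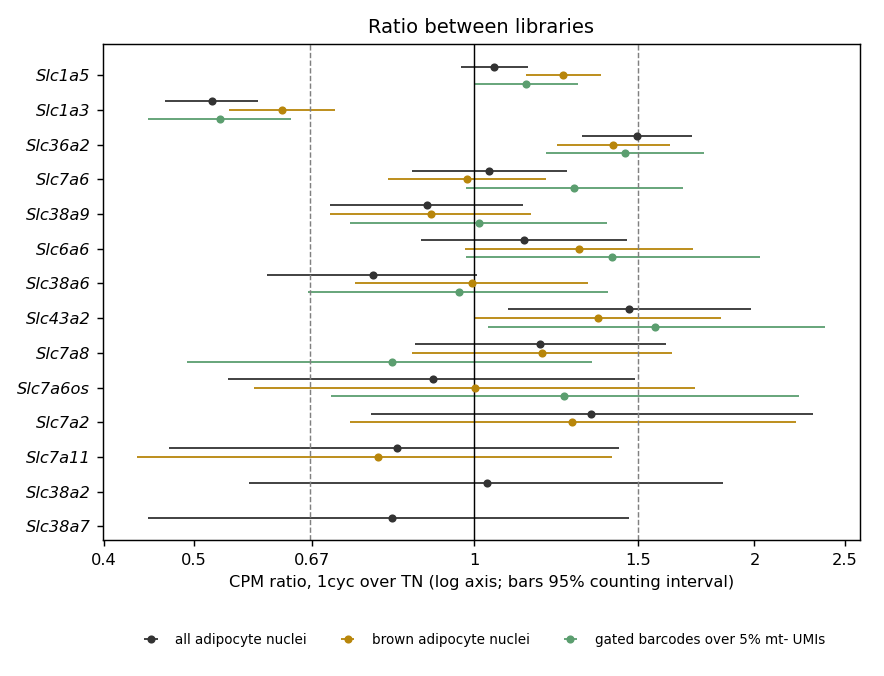
Ratio of 1cyc over TN CPM on a log axis with 95% counting intervals, for all adipocyte nuclei, for brown adipocyte nuclei and for gated barcodes over the mitochondrial limit. Dashed lines mark 1.5-fold. Slc1a3 lay below 1 in the 3 populations and Slc36a2 and Slc43a2 above 1, while Slc1a5 moved from 1.05 in all adipocyte nuclei to 1.25 in brown adipocyte nuclei.

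Brown adipocyte nuclei are part of the adipocyte nuclei, and their values leave out the white-like nuclei, whose share was smaller in 1cyc. They still hold nuclei with 1 or 2 UMIs of Nnat and Slc7a10, 62 and 18 in TN and 18 and 4 in 1cyc. How far the white-like share enters the ratios was not tested. Of 12 members with at least 50 UMIs there, 1 was at least 1.5-fold lower and 0 were higher, where 6.75% and 11.3% of 5393 genes were. Slc1a3 went from 603 CPM (557 to 651) in TN to 375 CPM (337 to 416) in 1cyc, a ratio of 0.622 (0.545 to 0.709). Slc1a5 went from 835 CPM (781 to 892) to 1041 CPM (978 to 1108), a ratio of 1.25 (1.14 to 1.37). With white-like nuclei left out, the Slc1a5 interval lay above 1, and the Slc1a3 ratio was closer to 1 but still past 1.5-fold. Slc36a2 stood at 346 and 488 CPM (1.41, 1.23 to 1.62), Slc43a2 at 76.6 and 104 CPM (1.36, 1.00 to 1.84), and Slc6a6 at 90.8 and 118 CPM (1.29, 0.977 to 1.72). Slc38a6 stood at 99.3 and 98.7 CPM (0.994, 0.744 to 1.33), so its lower level over all adipocyte nuclei was not seen in brown adipocyte nuclei.

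White-like and brown adipocyte nuclei differed in their transporters within each library. Of the 14 members, 3 were at least 2-fold higher in white-like nuclei in both libraries, where 5.15% of 5649 genes were. These were Slc1a3, Slc1a5 and the taurine carrier gene Slc6a6. By the same rule 1 was lower, Slc7a2, where 10.2% of genes were, but this rested on 1 white-like UMI in TN and 0 in 1cyc beside 27 and 31 brown adipocyte UMIs. White-like nuclei were deeper, with median UMIs of 1536 in TN and 1335 in 1cyc against 856.5 and 953 in brown adipocyte nuclei.

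In TN, Slc1a3 stood at 2577 CPM (2314 to 2861) in white-like nuclei and 603 CPM in brown adipocyte nuclei, 4.28-fold higher (3.74 to 4.88). In 1cyc it stood at 1903 CPM (1486 to 2400) and 375 CPM, 5.08-fold higher (3.88 to 6.57). Of the adipocyte UMIs of Slc1a3, 35.5% in TN and 16.6% in 1cyc came from white-like nuclei, while these nuclei held 11.4% and 3.77% of all adipocyte UMIs. Slc1a5 stood at 2702 CPM (2433 to 2993) in TN and at 2627 CPM (2133 to 3201) in 1cyc in white-like nuclei, 3.24-fold (2.86 to 3.66) and 2.52-fold (2.03 to 3.11) above brown adipocyte nuclei. Slc6a6 stood at 250 CPM (173 to 350) in TN on 34 UMIs and at 268 CPM in 1cyc on 10 UMIs, 2.76-fold (1.81 to 4.12) and 2.28-fold (1.06 to 4.35) higher. All 3 genes kept an interval above 1 in each library.

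Markers of other cells differed between the same classes. The Schwann cell list, of 6 genes, summed to 530 CPM in TN and 536 CPM in 1cyc in white-like nuclei, against 82.3 and 75.6 CPM in brown adipocyte nuclei. Of its white-like UMIs, 70 of 72 in TN and 16 of 20 in 1cyc were of the sodium channel gene Scn7a, and the defining marker Sox10 was at 0 in both classes and libraries. The erythroid list summed to 228 CPM in white-like and 41263 CPM in brown adipocyte nuclei of TN. In the same order, the endothelial list summed to 140 and 708 CPM and the macrophage list to 14.7 and 241 CPM in TN. The skeletal muscle list summed to 26.8 and 441 CPM in 1cyc. The fibroblast list was close in TN, at 744 and 712 CPM. In nuclei with 0 UMIs of the Schwann list, a choice made after the data were seen that kept 37 TN and 14 1cyc white-like nuclei, Slc1a3 was 2.99-fold (2.36 to 3.76) and 4.76-fold (3.16 to 6.93) higher in white-like nuclei. Slc1a5 was 2.33-fold (1.86 to 2.88) and 2.18-fold (1.54 to 3.001) higher there. Slc6a6, on 7 and 5 white-like UMIs, was 1.65-fold (0.643 to 3.55) and 2.42-fold (0.769 to 5.83) higher, with intervals that held 1. The part of the erythroid, endothelial, macrophage and skeletal muscle lists in these ratios was not tested.

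For 5 other members of the 14 the interval excluded 1 in TN and held 1 in 1cyc, where white-like nuclei were few, and no difference between the libraries was tested. The share of all genes that met this rule is not given here, so the count does not set the members apart from other genes. Slc38a6 stood at 368 CPM (273 to 485) against 99.3 CPM, 3.71-fold (2.59 to 5.24), and in 1cyc at 161 CPM on 6 UMIs against 98.7 CPM, 1.63-fold (0.583 to 3.68). Slc36a2 went the opposite way, at 147 CPM against 346 CPM in TN (0.425, 0.257 to 0.667) and 375 CPM against 488 CPM in 1cyc (0.769, 0.417 to 1.30). Slc43a2 stood at 14.7 CPM on 2 UMIs against 76.6 CPM in TN (0.192, 0.0229 to 0.717), and Slc7a6 at 88.3 CPM against 214 CPM (0.413, 0.210 to 0.736). Slc36a2, Slc43a2 and Slc7a6 were thus lower in white-like nuclei of TN, and their 1cyc intervals held 1. Slc38a7 stood at 58.9 CPM on 8 UMIs against 21.8 CPM in TN, 2.71-fold (1.05 to 6.27), and held 0 white-like UMIs in 1cyc. Slc43a1, named here after its values were seen, held 18 of its 30 TN and 4 of its 5 1cyc adipocyte UMIs in white-like nuclei. It stood at 133 CPM against 11.4 CPM in TN (11.7-fold, 5.32 to 26.6). In 1cyc it stood at 107 CPM against 1.05 CPM, on 4 and 1 UMIs (102-fold, 10.1 to 5030), so its interval lay above 1 in both libraries.

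**Figure D3:**
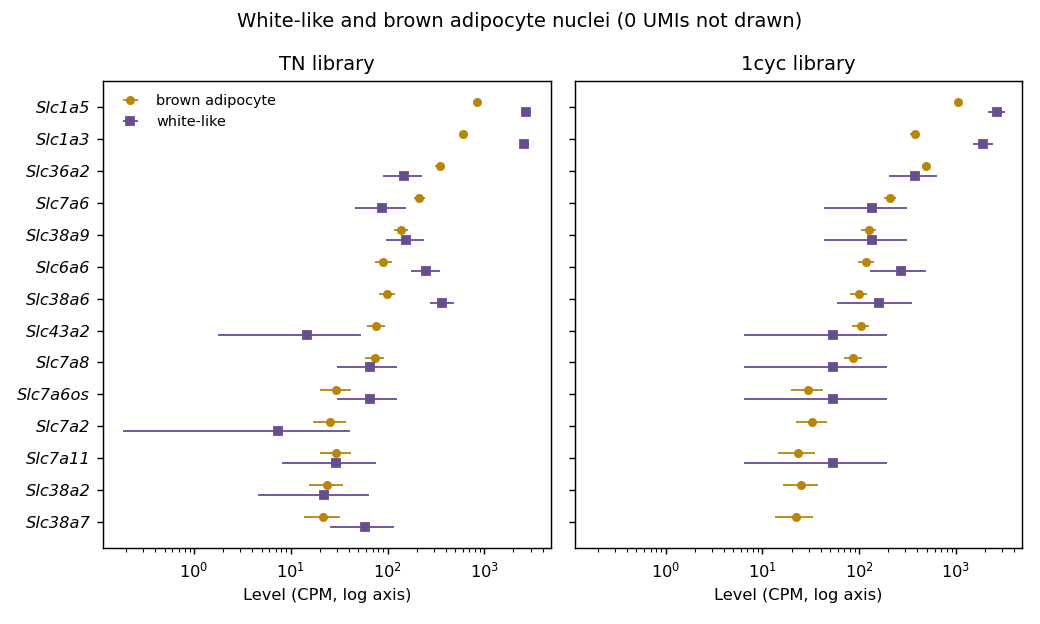
Level of the 14 members in brown adipocyte and white-like nuclei of each library, in CPM on a log axis with 95% Poisson intervals; a class with 0 UMIs is not drawn. Slc1a5, Slc1a3 and Slc6a6 lay higher in white-like nuclei in both libraries, and Slc36a2 and Slc7a6 lay lower in TN.

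Between the libraries, 3 members could be compared within white-like nuclei. Slc1a5 stood at 0.972 times its TN level (0.770 to 1.22), Slc1a3 at 0.739 times (0.564 to 0.956) and Slc38a6 at 0.437 times (0.153 to 1.02, on 50 and 6 UMIs). By the point value 1 of 3, Slc38a6, was at least 1.5-fold lower and 0 were higher, where 11.1% and 9.04% of 542 genes were. Slc38a6 reached the minimum of 50 UMIs on its TN count alone. Its place among the 3 thus rests on the library where it was high. The levels of Slc1a5 in white-like nuclei of the libraries could not be told apart at this depth, and that of Slc1a3 was lower in 1cyc in both classes.

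Slc1a5 in both libraries, and Slc1a3 in TN, stood higher with each step in the number of Nnat and Slc7a10 UMIs, below the white-like gate too. In TN, Slc1a3 stood at 526 CPM (482 to 574) in nuclei with 0 such UMIs, 1195 CPM (940 to 1497) with 1, 2163 CPM (1610 to 2844) with 2 and 2577 CPM with 3 or more. In 1cyc the same steps read 355 CPM (318 to 396), 377 CPM (163 to 742), 3454 CPM (2110 to 5335) and 1903 CPM, those with 1 and 2 UMIs from 18 and 4 nuclei. Slc1a5 read 789, 1051, 2163 and 2702 CPM in TN and 1030, 1177, 2418 and 2627 CPM in 1cyc. Slc36a2 read 357, 207, 254 and 147 CPM in TN and 496, 235, 173 and 375 CPM in 1cyc, highest with 0 such UMIs and with no steady order after that. In nuclei with 0 such UMIs, a choice made after the data were seen, 1cyc over TN was 0.675 for Slc1a3 (0.586 to 0.777), 1.31 for Slc1a5 (1.19 to 1.44), 1.39 for Slc36a2 (1.20 to 1.60) and 1.38 for Slc43a2 (1.01 to 1.90). There the Slc1a3 ratio no longer passed 1.5-fold, and its interval still lay below 1.

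**Figure D4:**
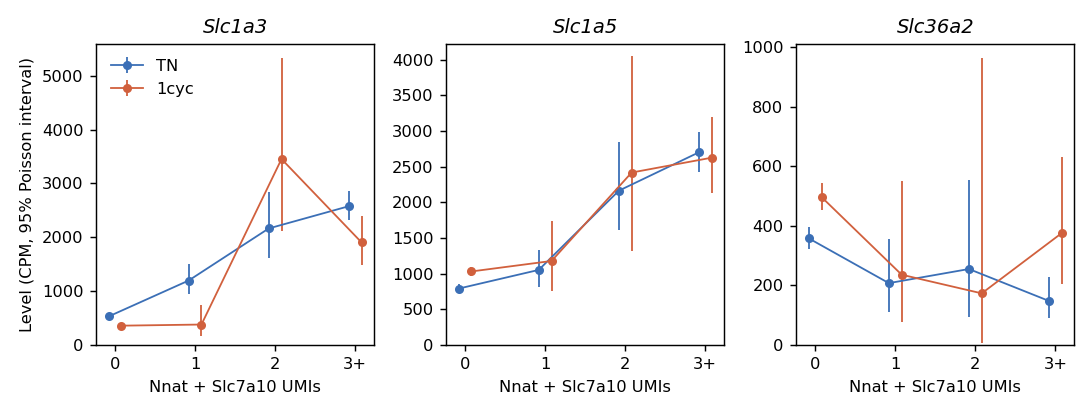
Level of Slc1a3, Slc1a5 and Slc36a2 in CPM with 95% Poisson intervals in adipocyte nuclei with 0, 1, 2 or 3 and more UMIs of Nnat and Slc7a10, for TN and 1cyc. Slc1a3 and Slc1a5 were lowest in nuclei with 0, and Slc36a2 was highest there.

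After each nucleus was thinned to 500 UMIs, which left out 0 TN and 125 1cyc adipocyte nuclei, Slc1a5 was seen in 35.6% of TN adipocyte nuclei (32.8 to 38.6) and 39.8% of those of 1cyc (36.3 to 43.3). Slc1a3 was seen in 26.3% (23.7 to 29.0) and 15.5% (13.0 to 18.2), and Slc36a2 in 14.2% (12.1 to 16.4) and 18.8% (16.1 to 21.7). Unthinned, at median UMIs of 873 and 966.5, the shares were 52.9% and 60.9% for Slc1a5, 40.5% and 29.9% for Slc1a3, and 26.5% and 35.6% for Slc36a2. In white-like nuclei the thinned share of Slc1a5 was 67.9% (56.6 to 77.8) in TN and, in 1cyc, 11 of 22 nuclei (28.2% to 71.8%), and that of Slc1a3 was 59.3% (47.8 to 70.1) and 40.9% (20.7 to 63.6). As a background for free RNA, skeletal muscle nuclei showed none of the 3 genes in 28 TN nuclei at a median of 1079.5 UMIs before thinning, which allows up to 12.3%. In the 43 erythroid barcodes of TN, at a median of 4273 UMIs, the thinned shares were 6.98% for Slc1a3, 4.65% for Slc1a5 and 2.33% for Slc36a2. Slc1a3 was seen in 2 of 26 TN endothelial nuclei, and in 11.7% of TN fibroblast or progenitor nuclei, where Slc1a5 was seen in 18.4%. How much of this was free RNA was not tested. All these classes lie outside the adipocyte gate, so barcodes with at least 4 UMIs of its genes had already been left out. The share of Slc1a3 in TN white-like nuclei was above that of brown adipocyte nuclei (23.6%, 21.0 to 26.4) also at equal depth.

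Brown adipocyte nuclei were also split by Ucp1, the uncoupling protein gene, and by the lipogenic genes Acly, Fasn, Scd1, Elovl6 and Acss2, after thinning. Slc36a2 stood at 492 CPM (281 to 799) in TN nuclei with a Ucp1 UMI and 321 CPM (272 to 377) in those without, 1.53-fold (0.855 to 2.57), and at 581 and 408 CPM in 1cyc, 1.42-fold (0.906 to 2.16). Slc1a3 stood at 0.667 times (0.360 to 1.14) and 0.657 times (0.319 to 1.22) the level of nuclei without Ucp1. These differences pointed the same way in both libraries and stayed within counting error. In nuclei with at least 2 lipogenic UMIs, Slc36a2 stood at 148 CPM on 6 UMIs against 348 CPM in TN (0.425, 0.154 to 0.947) and at 368 against 445 CPM in 1cyc (0.827, 0.537 to 1.24). Slc1a5 differed little across either split, with ratios between 0.837 and 1.08.

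Promoter sequence is given for Slc1a3, the member with the lowest ratio, for Slc38a6, which was high in TN white-like nuclei, and for Slc43a2, which was higher in 1cyc. The windows are RefSeq promoters on build GRCm38.p6, limited to the bases before the first annotated start, 5′ to 3′ on the gene's strand. Slc1a3 is chr15:8710808-8711057 on the minus strand, Slc38a6 chr12:73286598-73286778 on the plus strand and Slc43a2 chr11:75531444-75531693 on the plus strand. Capitals mark TGACG on either strand, the short cAMP response element, and TGACGTCA, its full palindrome. The cAMP element was chosen after the windows had been read.
Slc1a3: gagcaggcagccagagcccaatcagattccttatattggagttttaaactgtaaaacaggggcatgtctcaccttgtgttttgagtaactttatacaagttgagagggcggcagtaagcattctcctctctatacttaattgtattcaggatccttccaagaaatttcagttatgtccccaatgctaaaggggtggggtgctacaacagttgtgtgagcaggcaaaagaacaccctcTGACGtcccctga
Slc38a6: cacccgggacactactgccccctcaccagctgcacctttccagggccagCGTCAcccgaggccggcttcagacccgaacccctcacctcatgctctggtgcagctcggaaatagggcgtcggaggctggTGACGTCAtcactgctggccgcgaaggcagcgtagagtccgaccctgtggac
Slc43a2: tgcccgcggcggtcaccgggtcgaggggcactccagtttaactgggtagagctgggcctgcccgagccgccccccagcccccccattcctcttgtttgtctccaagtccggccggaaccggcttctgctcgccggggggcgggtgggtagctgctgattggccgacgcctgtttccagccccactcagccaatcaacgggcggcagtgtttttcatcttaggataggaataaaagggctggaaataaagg
The 250-base Slc1a3 window held TGACG once, and 17.8% of 32851 promoters held it in a window of that length. The 181-base Slc38a6 window held it 3 times, 2 of them inside 1 palindrome, where 10.8% of promoters held TGACG and 0.594% held TGACGTCA at that length. The Slc43a2 window held neither. None of the 3 held AGGTCA, a nuclear receptor motif, found in 14.0% of 250-base windows, or TGATGNAA, the amino acid response element core, found in 3.45%. These matches describe the letters of the windows and nothing about binding.

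Outside the adipocyte gate, 5 members held at least 50 UMIs, of which 2 were at least 1.5-fold higher in 1cyc and 0 lower, where 21.7% and 6.27% of 1706 genes were. Slc7a11 stood at 92.4 CPM (67.7 to 123) in TN against 150 CPM (99.4 to 216) in 1cyc (1.62, 0.974 to 2.64), and Slc1a5 at 185 and 283 CPM (1.53, 1.07 to 2.17). Slc43a3 stood at 1.15 times (0.662 to 1.93), Slc38a9 at 0.823 times (0.405 to 1.56) and Slc1a3 at 0.790 times (0.467 to 1.29) the TN level. Barcodes rich in haemoglobin transcripts numbered 43 in TN and 16 in 1cyc and held 229173 of the 497754 TN UMIs of this population. Without them Slc7a11 stood at 1.31 (0.788 to 2.14) and Slc1a5 at 1.35 (0.934 to 1.93), and neither passed 1.5-fold.

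Some members were higher in nuclei of other cell types than in adipocyte nuclei; levels here are summed over both libraries unless a library is named. Fibroblast or progenitor nuclei, 103 in TN and 59 in 1cyc, held Slc7a11 at 321 CPM (245 to 412) and Slc43a3 at 315 CPM (241 to 406). Their most counted member, Slc1a5, stood at 420 CPM (333 to 523), below the 933 CPM of brown adipocyte nuclei. Slc7a11 in brown adipocyte nuclei stood at 29.3 CPM in TN against 23.1 CPM in 1cyc, far below its fibroblast level of 267 and 429 CPM. Endothelial nuclei, 26 and 14, held Slc43a3 at 226 CPM (113 to 405) on 11 UMIs and Slc38a2 and Slc6a6 at 144 CPM on 7 UMIs each, with 0 UMIs of Slc1a5 and Slc36a2. Skeletal muscle nuclei, 28 and 7, held Slc7a2 at 321 CPM (175 to 538), Slc7a11 at 275 CPM (142 to 480) and Slc38a3, a glutamine carrier, at 160 CPM (64.5 to 330). Slc7a11 held 12 UMIs there in TN and 0 in 1cyc. The TN UMIs came from 14.3% of the 28 nuclei before thinning, and the interval does not take this clustering into account.

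The smaller classes rested on few UMIs. Macrophage nuclei, 7 in TN and 8 in 1cyc, held 12 UMIs of Slc43a2 at 391 CPM (202 to 684), 7 of Slc6a6 at 228 CPM and 5 of Slc38a6 at 163 CPM. By library, Slc43a2 stood at 222 CPM in TN against 862 CPM in 1cyc there, and all 7 Slc6a6 UMIs were from TN. Pericyte nuclei held 8 UMIs of Slc1a5 at 297 CPM (128 to 585), which was 117 CPM when the class needed 3 marker UMIs in place of 2. Of these, 2 UMIs (104 CPM) were from TN and 6 (778 CPM) from 1cyc. Slc38a11 was seen with 6 UMIs at 1233 CPM (453 to 2684) in smooth muscle nuclei, all in TN, where there were 5 such nuclei against 1 in 1cyc, and with 2 UMIs in all adipocyte nuclei. Erythroid barcodes held Slc1a5 at 34.3 CPM and Slc1a3 at 27.4 CPM at median UMIs of 4273 and 2517.5. The 31 TN and 57 1cyc nuclei that no list placed held Slc1a5 at 1000 CPM, Slc1a3 at 909 CPM and Slc36a2 at 364 CPM. For Slc1a5 and Slc36a2 these levels were near those of adipocyte nuclei. Slc1a3 stood at 1415 CPM (948 to 2033) in unplaced TN nuclei, above its 827 CPM in TN adipocyte nuclei. In 1cyc it stood at 468 against 432 CPM. The adipocyte marker list stood at 10444 CPM in unplaced nuclei of TN against 15010 CPM in those of 1cyc.

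**Figure D5:**
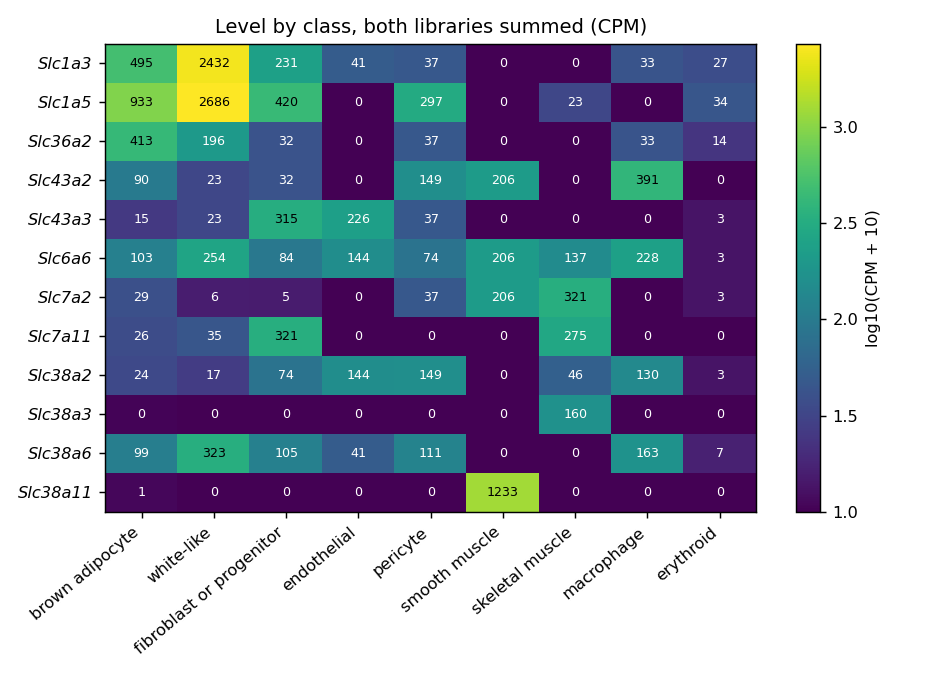
Level of 12 members in CPM, both libraries summed, in brown adipocyte, white-like and 7 marker-defined classes of nuclei; colour shows log10(CPM + 10) and the printed number is the CPM. Slc1a3 and Slc1a5 were highest in white-like nuclei, Slc36a2 in brown adipocyte nuclei, Slc43a2 in macrophages and Slc38a11 in smooth muscle.

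Barcodes over the mitochondrial limit that passed the adipocyte gate, 816 in TN and 1637 in 1cyc, gave further values from the same libraries, also added after the data were seen. Their CPM left out mitochondrially encoded, haemoglobin and ribosomal protein genes. Of 10 members with at least 50 UMIs there, 1 was higher (Slc43a2) and 1 lower (Slc1a3) by at least 1.5-fold, where 10.4% and 9.81% of 4015 genes were. Slc1a3 stood at 660 CPM (597 to 728) in TN against 352 CPM (304 to 406) in 1cyc (0.533, 0.446 to 0.635), so its lower level was as large there as in the kept nuclei. The taurine carrier gene Slc6a6 stood at 94.3 and 133 CPM (1.41, 0.980 to 2.03).

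Markers of other cell types moved between the libraries in the adipocyte nuclei. The fibroblast list, with 12 of 12 genes seen in both libraries, summed to 716 CPM in TN against 352 CPM in 1cyc. The endothelial list, also 12 of 12, summed to 644 and 258 CPM. The macrophage list summed to 215 CPM with 8 of 8 genes seen in TN and to 12.1 CPM with 4 at 0 in 1cyc. The erythroid list summed to 36591 and 2734 CPM and the skeletal muscle list to 109 and 425 CPM. Slc43a3, highest in fibroblast and endothelial nuclei, was lower in 1cyc adipocyte nuclei together with those lists, and their part in its ratio was not tested. When nuclei with at least 4 UMIs of any 1 such list were left out, a choice made after the data were seen that kept 981 TN and 872 1cyc nuclei, Slc1a3 stood at 0.504 (0.447 to 0.567), Slc36a2 at 1.35, Slc43a2 at 1.39 and Slc1a5 at 0.956 (0.878 to 1.04).

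The enzymes behind the transporters were read from gene lists in adipocyte nuclei, beside the shares of 11.2% higher and 7.49% lower over all genes. Of 20 measured genes of branched-chain amino acid breakdown, 1 was at least 1.5-fold higher and 0 lower, with a median log2 ratio of 0.18. The one was Dld, the shared dihydrolipoamide dehydrogenase subunit, at 36.9 CPM in TN against 71.7 CPM in 1cyc (1.94, 1.32 to 2.90). Glul, the glutamine synthetase gene, stood at 297 and 314 CPM (1.06, 0.906 to 1.24), beside the ratio of 1.05 of the glutamine carrier gene Slc1a5. Asns, the asparagine synthetase gene, was too scarce for a ratio, with 5 TN and 6 1cyc UMIs.

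Of 5 measured genes of the amino acid response, 2 were higher and 0 lower. Ddit3, encoding the stress factor CHOP, stood at 22.6 CPM in TN against 57.6 CPM in 1cyc (2.54, 1.58 to 4.18), and Cebpb at 39.4 and 73.7 CPM (1.87, 1.28 to 2.76). Atf4, the regulator of that response, stood at 44.4 and 31.3 CPM (0.705, 0.437 to 1.12), and Eif2ak4, the kinase GCN2 that senses uncharged transfer RNA, at 53.6 and 77.8 CPM (1.45, 1.03 to 2.05). Of 3 measured genes of taurine, creatine and glutathione metabolism, 0 passed 1.5-fold. Cdo1, which starts taurine synthesis from cysteine, stood at 341 and 454 CPM (1.33, 1.16 to 1.52), and Csad, the next enzyme, at 163 and 228 CPM (1.40, 1.15 to 1.70), beside the ratio of 1.13 of the taurine carrier gene Slc6a6. Of 2 measured genes of other amino acid transporter families, 0 passed 1.5-fold.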

How the data were processed

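The deposited files held raw UMI counts per gene and barcode, 1 matrix per library; per the file headers they came from Cell Ranger 3.1.0, and per the submitters' processing notes reads were aligned to mm10. Whether intronic reads were counted is not given in the sources used here. Members and lists were chosen with earlier results of these data known. Genes named in the text were the members with at least 50 UMIs, those past 1.5-fold or, between white-like and brown adipocyte nuclei, 2-fold the same way in both libraries, and the 3 highest per class with at least 5 UMIs; others are named with their counts.

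Counts were summed over the nuclei of a class and library and scaled to CPM over all UMIs of that sum. CPM carry exact Poisson intervals, ratios exact conditional binomial intervals and shares Clopper-Pearson intervals, all at 95%. With 1 pooled library per condition no p-value was computed. The scripts were tested on simulated counts. Marker classes needed at least 2 UMIs of 1 list and more than of any other. Doublets were not removed in the main values; Scrublet (scanpy 1.11.5) marked 6 TN and 7 1cyc nuclei, whose removal was an alternative. Other alternatives changed the gates, the mitochondrial limit, the UMI minimum, the scaling (edgeR 4.0.16 for TMM) and the depth. Gene positions are from GENCODE M21, which held all 66 members; RefSeq promoters matched 48. The count for the list of glutamine, glutamate and serine metabolism is not reported here.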

Additional observations from a re-analysis of the deposited data

Results flagged for a closer look

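The ratio of 1cyc over TN for Slc7a11 was 1.62 in nuclei outside the adipocyte gate and 0.826 in adipocyte nuclei, on opposite sides of 1; the difference was not tested, and both intervals held 1. Slc1a5 had a ratio of 0.972 in white-like nuclei and 1.25 in brown adipocyte nuclei, also on opposite sides of 1, and this difference was not tested either.

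In gated barcodes over the mitochondrial limit, which the comparisons of kept nuclei did not use, 3 members had a ratio whose interval lay above 1. Slc43a2 stood at 69.5 and 109 CPM, a ratio of 1.56 (1.04 to 2.38), Slc36a2 at 311 and 452 CPM, 1.45 (1.20 to 1.76), and Slc1a5 at 799 and 909 CPM, 1.14 (1.001 to 1.29). The share of all genes with such an interval is not given here. All 3 lay on the same side of 1 as in the kept adipocyte nuclei. Of the 10 members measured there, Slc7a8 (0.815 against 1.18), Slc7a6os (1.25 against 0.904) and Slc38a9 (1.01 against 0.890) lay on opposite sides. Their intervals held 1 in both populations.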

How the results depend on the processing

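No paired analysis was possible because each condition is 1 library. The count of members at least 1.5-fold higher in adipocyte nuclei, 0 as reported, was 1 with an adipocyte gate of 3 UMIs, a mitochondrial limit of 10%, a minimum of 20 UMIs, thinning to 500 UMIs or barcodes over the limit, and 2 with a limit of 2%. The count at least 1.5-fold lower, 1 as reported, was 2 with limits of 2% and 10% and with thinning, 3 with a minimum of 20 UMIs, and 0 in nuclei with 0 Nnat and Slc7a10 UMIs. With a white-like gate of 5 UMIs the lower count in white-like nuclei was 0, and the members 2-fold lower than in brown adipocyte nuclei numbered 3, or 2 with a gate of 2. Outside the adipocyte gate the higher count was 0 without erythroid barcodes and 0 with CPM free of mitochondrial, haemoglobin and ribosomal protein genes, where the lower count was 1. Slc1a5 in pericytes moved from 297 to 117 CPM with 3 marker UMIs. Shares over all genes are given above for the minimum of 20 UMIs and for barcodes over the limit. They are not given for the other settings, so those counts do not set the members apart from other genes. The cause of these changes was not tested.

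Over the alternatives other than those added after the data were seen, Slc1a3 in adipocyte nuclei ranged from 0.423 to 0.622. Slc36a2 ranged from 1.37 to 1.55, Slc43a2 from 1.18 to 1.77 and Slc38a6 from 0.558 to 0.994. Slc1a5 ranged from 0.826, with a mitochondrial limit of 2%, to 1.25. The upper values of Slc1a3, Slc38a6 and Slc1a5 were those of brown adipocyte nuclei, a part of the adipocyte nuclei without the white-like ones. Median-of-ratios scaling also shifted all log2 ratios by −0.10, with Slc1a5 at 0.983, Slc38a2 at 0.966 and Slc7a6 at 0.971. Of the recomputed single-gene ratios, 14 moved outside their counting interval and 254 did not. At 50 UMIs the depth limits any member to coarse ratios, and with no replicate libraries the differences between mice are unknown.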
